A study of Mustela putorius furo and Mus musculus with 4 samples.

Results

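The nuclear genes of oxidative phosphorylation were followed from radial glial (RG) cells through intermediate progenitor cells (IPCs) to pyramidal neurons (PyNs) of the fetal cortex. Members were all genes whose symbols start with Nduf, Uqcr, Atp5 or Cox4 to Cox8, together with Sdha, Sdhb, Sdhc and Sdhd, which gave 91 of 17170 genes in the mouse table. The same rule in upper case gave 69 of 22008 genes in the ferret table, of complexes I, II and V and with NDUFA4 and NDUFA4L2 alone for complex IV, and 64 of the mouse members had a row there. Of the 91 mouse genes, 74 encode subunits in general use, 10 encode assembly or related factors and 7 are paralogs of cytochrome c oxidase subunits that are known mainly from particular tissues. By complex, there were 44 genes for complex I, 4 for complex II, 8 for complex III, 19 for complex IV and 16 for ATP synthase (complex V).

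Oxidative phosphorylation makes most of the ATP of respiring cells at the inner mitochondrial membrane. Complexes I and II take electrons from NADH and succinate, complex III passes them through cytochrome c to complex IV, which reduces oxygen, and the proton gradient built on the way drives ATP synthase. Complexes I, III, IV and V combine subunits encoded in the nucleus with a few encoded in mitochondrial DNA, while complex II is encoded by nuclear genes alone. Neural stem cells are known for high glycolysis, and the passage to neurons is known for a growing reliance on respiration.

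The mouse data are 2 single-cell libraries of E18 cortex from CD1 animals, 1 of hGFAP-Cre;Smo F/F embryos (Smo cKO) and 1 of littermate controls, which are Smo F/F in the study's methods and wild type in the sample labels. Cre is driven by the human GFAP promoter in cortical RG cells and deletes Smo, the membrane transducer of Sonic hedgehog. A day before collection a fluorescent dye, CellTrace Yellow in the methods and Flash-Tag in the labels, was given into the lateral ventricle, and dye-bearing cells were then sorted and captured on the 10x Chromium platform. The ferret data are E39 wild-type cortex of 1 embryo, whose table holds 2 sets of barcodes, and nothing in it says which set belongs to which of the 2 labeled samples.

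The deposited values are counts of unique molecular identifiers (UMIs), each standing for 1 captured transcript, so a level counts transcripts and needs no correction for gene length. After filtering there were 10498 control cells with 51657121 UMIs, 7209 Smo cKO cells with 42057782 UMIs, and 10185 and 13052 ferret cells with 30548876 and 56090792 UMIs. Of the barcode sequences, 28 occurred in both mouse libraries and 38 in both ferret sets. The mouse table names no sample, and each of its barcode suffixes was assigned to the genotype whose cell number in the study's methods equals its number of barcodes. The suffix taken as control had 10524 barcodes and that taken as Smo cKO 7596, and every direction given between genotypes rests on that assignment. In RG-like cells Smo itself had 103 UMIs in the control library and 3 in the Smo cKO library, or 16.2 and 0.420 CPM (counts-per-million of all UMIs in the class).

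Cell classes were rebuilt by clustering without the member genes and named from marker genes. In the control library the 20 RG markers summed to 45819 CPM in RG-like cells and 1090 CPM in PyN-like cells, the 15 IPC markers were highest in IPC-like cells at 4151 CPM, and the 22 PyN markers were at 1261 CPM in RG-like and 6741 CPM in PyN-like cells. The ferret classes were less separated by RG markers, at 26860 CPM in RG-like and 6866 CPM in PyN-like cells of set 1 and 26175 and 4531 CPM in set 2, and IPC markers were at 561 CPM in RG-like and 1170 CPM in IPC-like cells of set 1 and at 687 and 1474 CPM in set 2. Comparisons were made between RG-like cells outside the clusters called cycling from markers of mitosis and DNA synthesis (1140 control, 923 Smo cKO), IPC-like cells (1912 and 1192) and PyN-like cells (3844 and 3183), and in ferret 427 and 538 RG-like, 961 and 1103 IPC-like and 6454 and 8110 PyN-like cells. The RG-like cells compared include a cluster with the DNA replication genes Gins2, Mcm4 and Mcm3 among its leading genes, which has 458 control and 240 Smo cKO cells. Intervals are exact 95% intervals that reflect counting error and nothing else. Each genotype is 1 library and the ferret is 1 embryo, so there are no replicates and no test was made, and genotype cannot be told apart from embryo or preparation. A gene was compared if both groups together held at least 200 UMIs, and a ratio of at least 1.25 or at most 0.8 is called past the fold.

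The members' transcripts made up nearly the same share of all UMIs along the lineage in control, and a smaller share in PyN-like cells in Smo cKO. In control cells the 91 genes summed to 39777 CPM in RG-like cells (39622 to 39932), 40134 CPM in IPC-like cells and 37995 CPM in PyN-like cells. In Smo cKO cells the sums were 41356, 39892 and 35063 CPM, a ratio of PyN-like over RG-like cells of 0.848 (0.844 to 0.852). Glycolysis genes spread more in both libraries, from 6120 CPM in RG-like to 3523 CPM in IPC-like and 2756 CPM in PyN-like control cells, and from 7904 through 4166 to 3098 CPM in Smo cKO cells. The 13 genes encoded in mitochondrial DNA went the other way, from 8700 CPM through 12207 CPM to 13040 CPM in control and from 8923 through 11893 to 13203 CPM in Smo cKO. Outside this lineage, control Cajal-Retzius-like cells, the reelin-secreting neurons of the cortical surface, had the highest sum of members of all clusters, at 50298 CPM in 19 cells, and a microglia-like cluster of 25 cells had the lowest, at 33568 CPM.

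**Figure D1:**
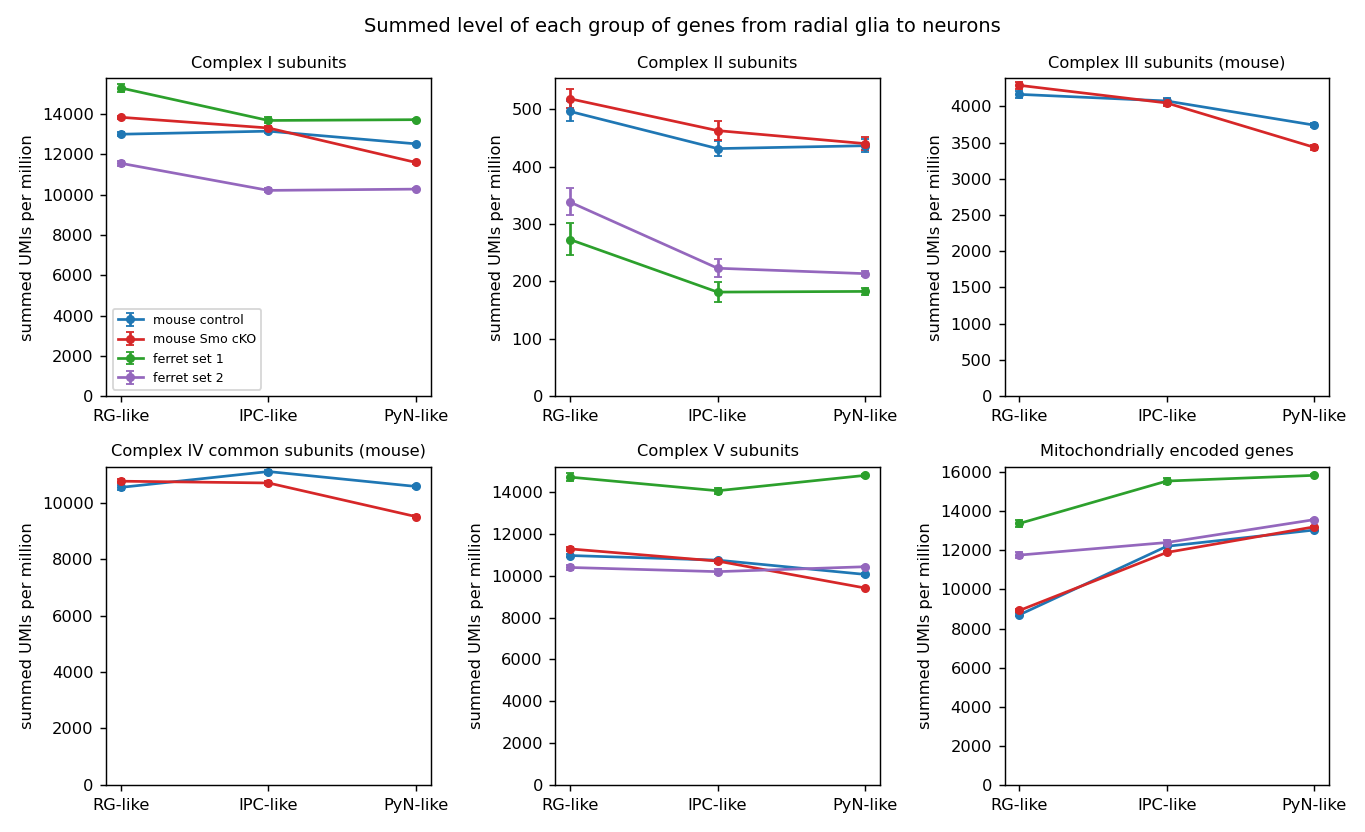
Summed CPM (y axis, starting at 0) of the nuclear genes of each complex and of the genes in mitochondrial DNA in RG-like, IPC-like and PyN-like cells (x axis) for the mouse control and Smo cKO libraries and the 2 ferret barcode sets, with exact Poisson 95% intervals. Most lines of nuclear genes are close to level, complex II is the lowest group and highest in RG-like cells in all 4, and the mitochondrial genes of the control library climb from 8700 to 13040 CPM.

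The plot of summed levels by complex separates the complexes. Comparing PyN-like with RG-like control cells, complex I subunits summed to 0.963 of their RG level (0.955 to 0.971), complex III subunits to 0.898 (0.885 to 0.912) and ATP synthase subunits to 0.918 (0.909 to 0.926). The 11 common complex IV subunits stood at 1.00 (0.994 to 1.01), and complex II, the smallest and least abundant, at 0.880 (0.843 to 0.919). The 10 assembly and related factors summed to 1.2 (1.15 to 1.25), a value carried by the supercomplex factor Cox7a2l, and the other 9 stood at 1.06 (1.00 to 1.11). In the Smo cKO library the same ratios were 0.838, 0.801, 0.834, 0.883, 0.849 and 1.23, so that each group of subunits lay lower against its RG level than in control, with overlapping intervals for complex II. Without Cox7a2l the assembly factors stood at 1.03 (0.980 to 1.08) in Smo cKO, an interval that includes 1.

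Gene by gene, 84 of the 91 members had enough UMIs in each mouse library. The other 7 were Cox6a2, Cox6b2, Cox7a1, Cox7b2, Cox8b, Ndufa4l2 and Atp5s. In control cells 7 of the 84 were past the fold upward in PyN-like over RG-like cells, where 35.4% of all 8043 genes compared were, and 12 were past it downward, where 29.5% of all genes were. The members' median log2 ratio was 0.01, beside 0.08 over all genes, and it became -0.06 when the median over all genes was set to 0 and -0.03, beside 0.155, without the RG-like cluster led by the replication gene Gins2, so its sign depends on these choices. Between RG-like and IPC-like cells 5 of 84 control members were past the fold upward and 7 downward (25.3% and 30.0% of all genes), with a median log2 ratio of -0.01 beside -0.02, and in Smo cKO 5 of 83 upward and 8 downward (28.8% and 27.9%). With mitochondrial and ribosomal protein genes left out of the total, every ratio shifted alike, and the control comparison gave 16 members upward and 5 downward (35.7% and 22.9% of all genes) and a median of 0.15 beside 0.14 over all genes. In Smo cKO the same total gave a median of 0.073 beside 0.158, where it had been -0.055 beside 0.030. For PyN-like over RG-like Smo cKO cells 3 of 84 were past the fold upward (background 39.0%) and 24 downward (background 28.8%), with a median log2 ratio of -0.17 beside 0.12 over all 8186 genes. In either direction 22.6% of the members were past the fold in control beside 64.9% of all genes, and among genes at 50 CPM or more, where 77 members lie, the shares were 20.8% and 61.2%.

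Across the 84 genes the log2 ratios of the 2 libraries had a Pearson correlation of 0.985 and a Spearman correlation of 0.914, and 0.931 and 0.911 over the 83 genes without Cox4i2. The points share the cell classes and the gene annotation, and genes are not replicates, so these values are a description. The direction was the same in both libraries for 61 of 84 genes, 23 of them higher and 38 lower in PyN-like cells. Past the fold in both were 3 upward (Atp5sl, Ndufaf3 and Cox7a2l) and 12 downward (Cox4i2, Ndufc2, Sdhc, Sdhd, Ndufa12, Uqcr10, Cox6c, Uqcrb, Atp5e, Sdha, Uqcr11 and Atp5g2), where 32.1% and 24.7% of all 7874 genes compared in both were.

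**Figure D2:**
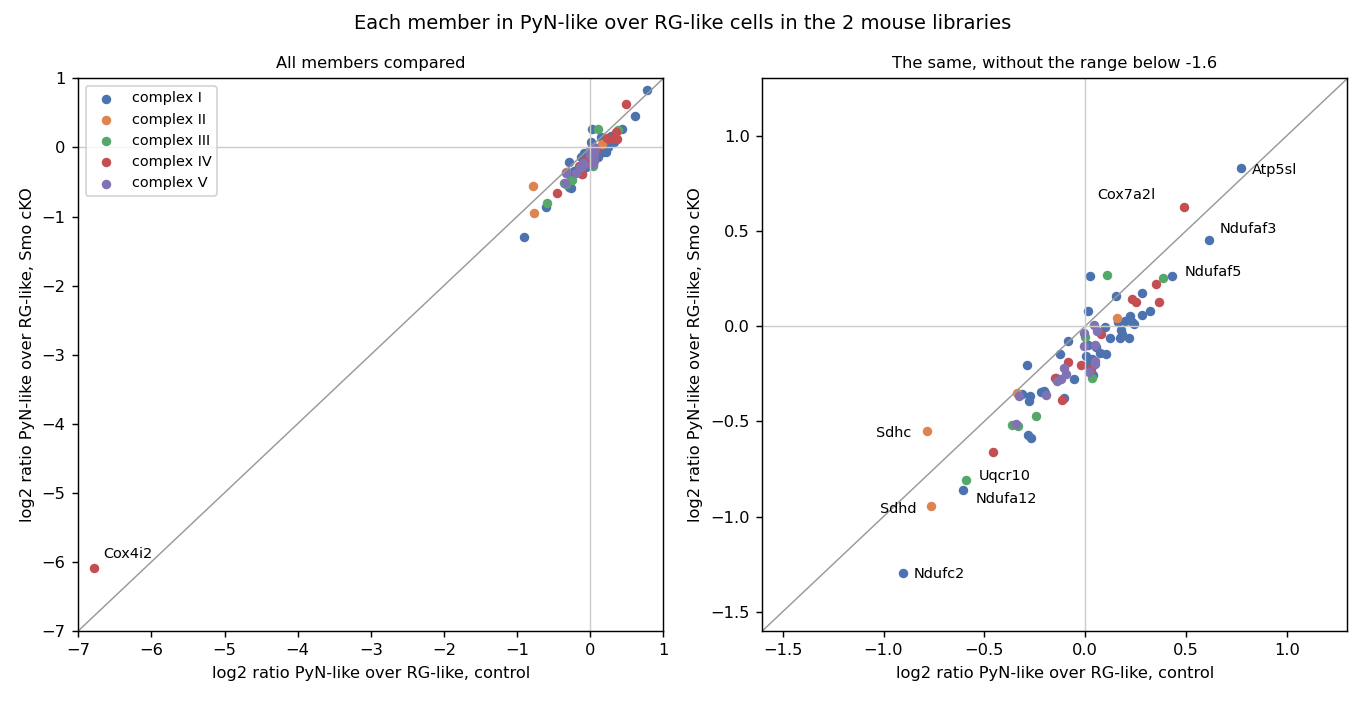
Log2 ratio of PyN-like over RG-like CPM for 84 members in the control library (x axis) and the Smo cKO library (y axis), drawn with all members and again without the range that holds Cox4i2 alone; points are genes. Ndufc2, Sdhc and Sdhd lie low on both axes, Atp5sl and Cox7a2l lie high on both, and most other genes lie near the origin and below the diagonal.

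Complex IV, cytochrome c oxidase, held the widest range of ratios. Its subunit 4 is encoded by Cox4i1, the common form, and Cox4i2, a paralog known from lung, blood vessel walls and oxygen-sensing cells. The last 50 codons of both genes are shown because they let a reader see how far the paralogs have diverged, with the bases that differ in capitals (GENCODE M21 annotation of GRCm38; Cox4i1 at chr8:120668222-120674207 on the plus strand, Cox4i2 at chr2:152754173-152765037 on the plus strand).
Cox4i1: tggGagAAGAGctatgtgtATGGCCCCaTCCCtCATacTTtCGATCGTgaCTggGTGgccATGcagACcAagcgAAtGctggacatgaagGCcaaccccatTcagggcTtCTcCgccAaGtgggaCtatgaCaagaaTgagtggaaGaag
Cox4i2: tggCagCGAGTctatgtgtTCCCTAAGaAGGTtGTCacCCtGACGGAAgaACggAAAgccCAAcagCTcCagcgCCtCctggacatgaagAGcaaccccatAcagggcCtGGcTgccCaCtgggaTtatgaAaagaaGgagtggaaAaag
Of these 150 bases 93 are equal, and 25 of 50 codons encode the same residue.

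Cox4i1 was at 672 CPM in RG-like, 792 CPM in IPC-like and 788 CPM in PyN-like control cells, and at 706, 803 and 780 CPM in Smo cKO cells. Cox4i2 was at 47.6 CPM in RG-like control cells (302 UMIs), 2.90 CPM in IPC-like (25 UMIs) and 0.431 CPM in PyN-like cells (6 UMIs). In the Smo cKO library its levels were 102 CPM (725 UMIs), 4.91 CPM (33 UMIs) and 1.48 CPM (20 UMIs). Among these 3 classes both libraries thus showed Cox4i2 as an RG-enriched transcript beside an evenly expressed Cox4i1. The Cox4i2 ratio of PyN-like over RG-like cells was 0.00906 (0.00330 to 0.0200) in control and 0.0146 (0.00887 to 0.0227) in Smo cKO. Outside these classes, Cox4i2 was at 46.0 CPM (14 UMIs) in control and 33.4 CPM (6 UMIs) in Smo cKO endothelial-like cells. A microglia-like cluster had 20.9 CPM (4 UMIs) and 32.5 CPM (23 UMIs). The unnamed clusters of 1209 and 204 cells, in which RG markers were also raised, had less Cox4i2 than RG-like cells. They were at 7.09 CPM (29 UMIs) and 4.95 CPM (3 UMIs) in control. In Smo cKO they were at 21.8 CPM (70 UMIs) and 47.1 CPM (38 UMIs).

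As a share of all subunit 4 UMIs, Cox4i2 took 6.62% in RG-like control cells (5.91 to 7.38), 2.72% in cycling RG-like cells, 0.365% in IPC-like and 0.0547% in PyN-like cells. The corresponding shares in the Smo cKO library were 12.6% (11.7 to 13.5), 6.0%, 0.608% and 0.190%. Mural cells, the pericytes and smooth muscle of vessels, had shares of 38.8% and 38.3%, with 27 and 18 cells. The 6 mural markers summed to 7477 CPM in control mural cells and to 59.7 CPM in control RG-like cells, where 4 of 6 were detected and Kcnj8 and Abcc9 were at 0. In Smo cKO RG-like cells they summed to 72.1 CPM, with 3 of 6 detected and Kcnj8, Vtn and Abcc9 at 0. Ndufa4l2, another paralog that stood out in mural cells, had 159 UMIs there against 62 for Cox4i2, while RG-like control cells had 17 UMIs of Ndufa4l2 against 302 of Cox4i2.

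**Figure D3:**
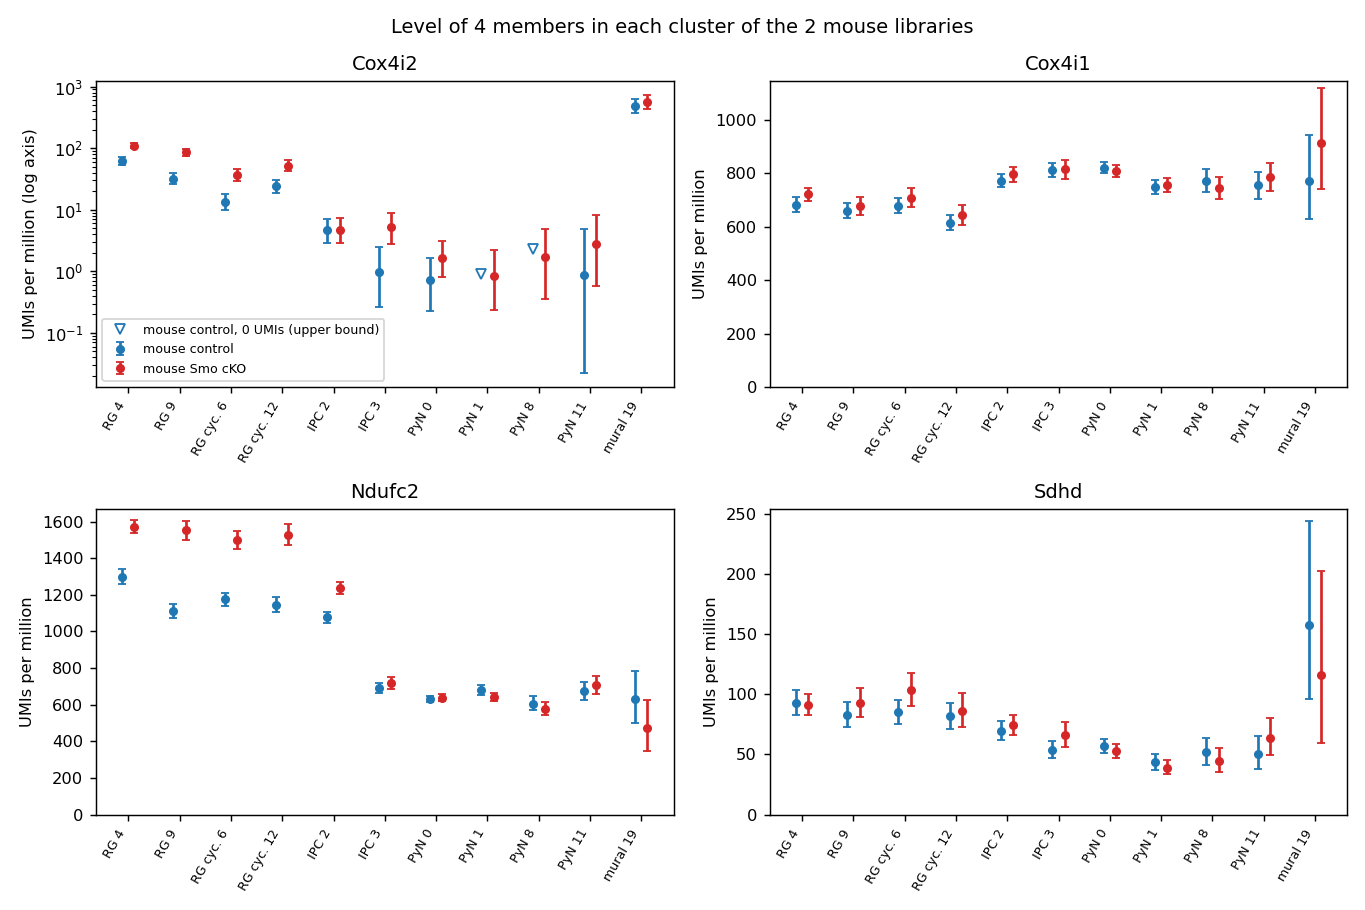
CPM of Cox4i2 (log axis), Cox4i1, Ndufc2 and Sdhd (axes from 0) in the RG-like, IPC-like, PyN-like and mural-like mouse clusters for the control and Smo cKO libraries, with exact Poisson 95% intervals; triangles mark the upper bound where a cluster had 0 UMIs. Cox4i2 is highest in mural cells at 489 and 569 CPM and next in RG-like clusters, and Ndufc2 is higher in the RG-like clusters and in one IPC-like cluster than in the other IPC-like cluster and the PyN-like clusters.

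The other paralogs of complex IV were scarce. Cox6b2, known as the testis form of subunit 6B, was at 8.04 CPM in RG-like control cells (51 UMIs) and 19.0 CPM in RG-like Smo cKO cells (136 UMIs), but at 1.44 CPM (20 UMIs) and 0.742 CPM (10 UMIs) in PyN-like cells. Its share of subunit 6B UMIs in RG-like cells was 0.796% in control and 2.02% in Smo cKO. Cycling RG-like cells had the other order, with 1.05% (63 UMIs) in control and 0.551% (21 UMIs) in Smo cKO. Cox7a1, the heart and muscle form of subunit 7A, stayed between 2.22 and 3.48 CPM in the 3 classes of both libraries. Cox6a2, the muscle form of subunit 6A, had 0 UMIs in every one of these classes, which in RG-like control cells allows a level of up to 0.473 CPM (3 UMIs). Cox7b2 did not exceed 0.315 CPM and Cox8b did not exceed 1.04 CPM. Cox6b2 was highest in RG-like cells among the 3 classes in both libraries, but its UMIs in RG-like and PyN-like cells came to under 200 in each library and it was not compared.

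The common complex IV subunits were abundant. Of the 11 compared, Cox5a and Cox7a2 were past the fold upward in control and Cox6c downward, beside 35.4% and 29.5% of all genes. Cox6c, a small membrane subunit without a paralog in this set, had the lowest ratio of the 11, 0.727 in control and 0.632 in Smo cKO. Its levels were 1453, 1244 and 1057 CPM from RG-like to PyN-like control cells and 1470, 1213 and 930 CPM in Smo cKO cells. Cox5a, a subunit on the matrix side, was the highest in control with a ratio of 1.29 (1.24 to 1.35), from 489 CPM in RG-like to 632 CPM in PyN-like cells, but its ratio was 1.09 (1.05 to 1.14) in Smo cKO. Cox7a2 was at 825 and 1051 CPM in control, a ratio of 1.28, and at 1.16 in Smo cKO. Cox6a1, Cox6b1, Cox7b and Cox8a had control ratios of 1.19, 1.06, 0.900 and 0.923. Ndufa4, a subunit first assigned to complex I and later to complex IV, was at 1387, 1243 and 1367 CPM in control. Cox7c, among the 3 most abundant members in RG-like control cells together with Atp5e and Cox6c, was at 1713, 2127 and 1750 CPM.

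Cox7a2l encodes a factor that joins complexes III and IV into supercomplexes and resembles subunit 7A. It stood at 220 CPM in RG-like, 333 CPM in IPC-like and 308 CPM in PyN-like control cells and at 207, 342 and 320 CPM in Smo cKO cells, ratios of PyN-like over RG-like cells of 1.40 (1.32 to 1.49) and 1.54 (1.46 to 1.64). The step lay between RG-like and IPC-like cells in both libraries, and the counting intervals of RG-like and IPC-like cells did not overlap.

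In complex I, 36 subunit genes were compared, and in control cells 2 were past the fold downward and 0 upward, beside 29.5% and 35.4% of all genes. In Smo cKO 9 were past it downward and 0 upward, beside 28.8% and 39.0%. The control ratios of PyN-like over RG-like cells ran from 0.534 for Ndufc2 to 1.248 for Ndufb9, just under the fold. The 7 core subunits, which carry the flavin and the iron-sulfur clusters, summed to 1.03 of their RG level in control and 0.908 in Smo cKO, and the 29 accessory subunits to 0.957 and 0.831.

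Ndufc2, an accessory subunit of the membrane arm (chr7:97400003-97407802, plus strand), had the lowest ratio of all complex I subunits in each mouse library. Control cells had 1209 CPM in RG-like, 891 CPM in IPC-like and 646 CPM in PyN-like cells, and Smo cKO cells had 1565, 1045 and 637 CPM. The levels therefore stepped down at each stage in both libraries, to ratios of 0.534 (0.518 to 0.551) and 0.407 (0.396 to 0.419). Within the IPC-like class the Neurog2-led cluster was at 1077 CPM in control and 1236 CPM in Smo cKO, and the other cluster was at 692 and 718 CPM, near the PyN-like level. The RG-like clusters lay above both, at 1299 and 1113 CPM in control and 1571 and 1552 CPM in Smo cKO. Ndufa12, another accessory subunit, followed the same order at 342, 308 and 225 CPM in control and 428, 345 and 236 CPM in Smo cKO. Ndufb9 went the other way in control, at 485, 580 and 605 CPM, but its ratio in Smo cKO cells was 1.05 (1.01 to 1.10), which is below the median over all genes of 0.12 on the log2 scale and so falls below 1 when that median is set to 0.

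The complex I assembly factors varied among themselves. Ndufaf3, which acts early in assembly, was at 48.4, 66.9 and 74.0 CPM in control and 49.9, 69.3 and 68.1 CPM in Smo cKO cells, ratios of 1.53 and 1.37. Atp5sl, named for likeness to an ATP synthase factor but counted here with complex I assembly, was at 9.93, 15.9 and 17 CPM in control and 9.10, 14.3 and 16.2 CPM in Smo cKO cells, ratios of 1.71 (1.29 to 2.29) and 1.78 (1.34 to 2.38). Ndufaf5 had a ratio of 1.35 (1.08 to 1.69) in control and of 1.2 in Smo cKO, where its interval of 0.968 to 1.49 includes 1. At the low end of the assembly factors, Ndufaf4 had a control ratio of 0.806 and Ndufaf1 a Smo cKO ratio of 0.666.

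Complex II, succinate dehydrogenase, oxidizes succinate in the citric acid cycle and feeds its electrons into the chain. The membrane anchor genes Sdhc and Sdhd were the ones that were lower in neurons by the most. Sdhc was at 87.5, 61.7 and 50.8 CPM in control and 83.9, 67.7 and 57.2 CPM in Smo cKO cells, with ratios of 0.580 (0.518 to 0.650) and 0.682 (0.612 to 0.760). Sdhd was at 88.0, 61.7 and 51.8 CPM and at 91.7, 71.4 and 47.7 CPM, with ratios of 0.589 (0.526 to 0.659) and 0.520 (0.465 to 0.580). Both anchors thus stepped down at each stage in each library. Sdha, the flavoprotein, had ratios of 0.792 and 0.782. Sdhb, the iron-sulfur subunit, differed from its partners, at 249, 249 and 277 CPM in control and 270, 259 and 279 CPM in Smo cKO, ratios of 1.11 (1.05 to 1.18) and 1.03 (0.976 to 1.09).

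Of the 8 complex III subunits compared, the small subunits Uqcr10, Uqcrb and Uqcr11 were past the fold downward in both libraries and Uqcrq in Smo cKO alone. Of all genes, 24.7% were past it downward in both libraries and 28.8% in Smo cKO. Uqcr10 was at 730, 590 and 485 CPM in control and 739, 591 and 421 CPM in Smo cKO cells, and Uqcrb had ratios of 0.779 and 0.698. Uqcrh, the hinge subunit that contacts cytochrome c1, was at 768, 1061 and 1003 CPM in control, a ratio of 1.31 (1.26 to 1.35), and had a ratio of 1.19 (1.15 to 1.23) in Smo cKO. Its highest level was in IPC-like cells in both libraries.

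ATP synthase had 15 subunit genes compared, and 2 of them were past the fold downward in control, beside 29.5% of all genes. These were Atp5e at 0.789 (0.772 to 0.807) and Atp5g2 at 0.797 (0.775 to 0.820). In Smo cKO 3 of the 15 were past it downward, beside 28.8% of all genes, and the ratios ran from 0.701 for Atp5e to 1.01 for Atp5f1. Atp5e, the epsilon subunit of the F1 head, was the most abundant member in RG-like control cells, at 1930 CPM against 1523 CPM in PyN-like cells. The highest control ratio in this complex was 1.04, for the alpha subunit gene Atp5a1.

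The c subunit, which forms the rotating ring of ATP synthase, is encoded by Atp5g1, Atp5g2 and Atp5g3. The 3 genes differ in their import sequences and end in the same mature protein. Their last 75 codons, without the stop codon, are shown for this reason, with each base at which the 3 are not all equal in capitals (GENCODE M21, GRCm38, all on the minus strand; Atp5g1 at chr11:96068852-96075670, Atp5g2 at chr15:102662864-102672352, Atp5g3 at chr2:73908447-73911326).
Atp5g1: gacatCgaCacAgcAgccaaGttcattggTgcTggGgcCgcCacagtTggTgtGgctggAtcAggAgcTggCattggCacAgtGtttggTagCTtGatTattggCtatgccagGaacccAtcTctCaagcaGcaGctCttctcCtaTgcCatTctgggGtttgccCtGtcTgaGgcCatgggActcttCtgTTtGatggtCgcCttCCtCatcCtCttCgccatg
Atp5g2: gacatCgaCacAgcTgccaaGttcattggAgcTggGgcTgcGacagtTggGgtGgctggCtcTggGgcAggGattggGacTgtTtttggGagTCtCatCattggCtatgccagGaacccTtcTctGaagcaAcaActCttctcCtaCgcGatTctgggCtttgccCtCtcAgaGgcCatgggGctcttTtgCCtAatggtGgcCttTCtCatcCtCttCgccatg
Atp5g3: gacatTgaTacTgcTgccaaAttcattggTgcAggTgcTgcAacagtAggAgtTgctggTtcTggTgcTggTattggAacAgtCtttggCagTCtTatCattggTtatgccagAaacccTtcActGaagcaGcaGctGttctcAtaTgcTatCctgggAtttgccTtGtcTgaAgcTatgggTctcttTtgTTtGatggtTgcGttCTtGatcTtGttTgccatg
The genes differ at 57 of these 225 positions, yet all 75 codons encode the same residue in each, so that a change in the share of each gene alters no residue of this stretch.

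Atp5g2 gave the most c subunit UMIs in RG-like, IPC-like and PyN-like mouse cells. In RG-like control cells Atp5g1, Atp5g2 and Atp5g3 were at 576, 1200 and 391 CPM, which is 26.6%, 55.4% and 18.1% of the 3 together. In IPC-like cells the shares were 23.8%, 59.5% and 16.7%, and in PyN-like cells 28.4%, 50.3% and 21.3%. The Smo cKO shares in RG-like cells were 25.8%, 53.1% and 21.1%, and in PyN-like cells 26.7%, 50.7% and 22.7%. Atp5g2 therefore peaked as a share in IPC-like cells of both libraries (60.3% in Smo cKO) and was lowest in PyN-like cells among these 3 classes.

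In ferret the order of the genes was another one. The gene for the third form, ATP5MC3, gave 71.2% and 72.2% of c subunit UMIs in RG-like cells of the 2 sets and 65.9% and 66.5% in PyN-like cells. ATP5MC2 gave 2.75% and 1.59% in RG-like cells, where its mouse ortholog gave more than any other. ATP5MC1 was at 26.0% and 26.2% in RG-like cells and at 32.3% and 32.5% in PyN-like cells. The 2 tables were aligned to different genomes with different annotation, and the part of annotation in this difference was not tested.

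**Figure D4:**
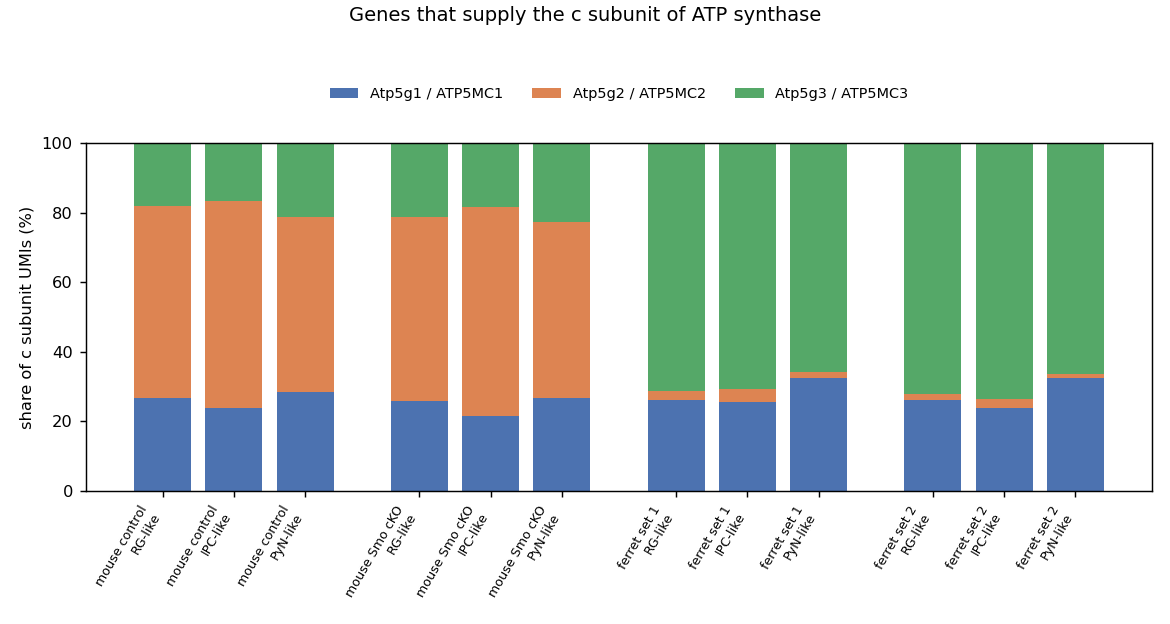
Percent of ATP synthase c subunit UMIs (y axis, 0 to 100) from each of its 3 genes in RG-like, IPC-like and PyN-like cells of the mouse control and Smo cKO libraries and of the 2 ferret barcode sets, as stacked bars. The second gene holds 50.3% to 60.3% in mouse and the third gene 65.9% to 73.5% in ferret.

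In ferret, genes of complexes III and IV other than NDUFA4 and NDUFA4L2 were not analysed here. The 69 ferret members summed to 33861, 31450 and 32542 CPM in RG-like, IPC-like and PyN-like cells of set 1 and to 24877, 23249 and 23725 CPM in set 2, so the sets differed from each other by more than the classes did within a set. The ratio of PyN-like over RG-like sums was 0.961 (0.952 to 0.970) and 0.954 (0.946 to 0.962). Past the fold were 5 members upward and 16 downward of 67 in set 1, where 32.2% and 28.1% of all genes compared were, and 8 upward and 17 downward of 68 in set 2, where 30.9% and 33.2% were. Their median log2 ratio was -0.11 and -0.10, beside 0.03 and -0.03 over all genes. In both sets 5 of 67 members were past the fold upward and 14 downward, where 25.2% and 23.2% of all 8640 genes compared in both were.

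SDHD had the lowest ferret ratio, as the anchors had among the lowest in mouse. It was at 148, 79.4 and 68.1 CPM in set 1 and 152, 66.9 and 60.4 CPM in set 2, ratios of 0.461 (0.398 to 0.536) and 0.396 (0.354 to 0.444). NDUFC2 was at 1095, 813 and 819 CPM and at 836, 551 and 558 CPM, ratios of 0.749 and 0.668. SDHD and NDUFC2 were thus lower in PyN-like than in RG-like cells in all 4 sets of cells, although NDUFC2 did not drop further from IPC-like to PyN-like cells in ferret. SDHC was at 16.9 and 14.9 CPM in RG-like and PyN-like cells of set 1, where its interval of 0.581 to 1.40 includes 1, and had a ratio of 0.544 (0.436 to 0.687) in set 2.

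Other members had opposite directions in the mouse and ferret cells compared, which differ in age and in sorting as well as in species. NDUFAF3 was at 190, 84.5 and 114 CPM in set 1 and 146, 95.7 and 106 CPM in set 2, ratios of 0.60 and 0.726, where the mouse gene was higher in PyN-like cells. ATP5MC1 had ratios of 1.37 (1.27 to 1.48) and 1.33 (1.25 to 1.42), where mouse Atp5g1 had 0.935 and 0.840. The assembly factors NDUFAF2 and NDUFAF4 had the highest ferret ratios, 1.70 and 1.93 for the former and 1.88 and 1.89 for the latter. Both genes held under 200 UMIs in RG-like and IPC-like cells together in each set, so these ratios rest on few RG-like UMIs. ATP5F1D, the delta subunit of the F1 head, had ratios of 0.640 and 0.539.

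Across 62 orthologs compared in both species, the log2 ratios of mouse control and ferret cells had Pearson correlations of 0.0894 and 0.279 and Spearman correlations of -0.0216 and 0.114 for the 2 sets, and the direction was the same for 30 of 62 in each. The 2 ferret sets had correlations of 0.937 and 0.952 with each other over 67 genes. These are descriptions across genes, in which the mouse points share 1 library and the ferret sets share 1 embryo, and the part of the weaker marker separation of the ferret classes was not tested. The mouse cells were from E18 and sorted for a dye given into the ventricle a day earlier. No dye is listed for the E39 ferret cells. Whether the PyN-like classes of the species hold neurons of like age and kind was not tested, so species cannot be told apart from sampling.

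Between genotypes, the members' sum was slightly higher in RG-like and lower in PyN-like cells of the Smo cKO library. RG-like cells had 39777 CPM in control and 41356 CPM in Smo cKO, a ratio of 1.04 (1.03 to 1.05), IPC-like cells 40134 and 39892 CPM, and PyN-like cells 37995 and 35063 CPM, a ratio of 0.923 (0.919 to 0.926). Median UMIs per cell differed too, at 4843.5 and 7261 in RG-like cells, 4084.5 and 5283.5 in IPC-like cells and 3177 and 3911 in PyN-like cells, and the summed cytosolic ribosomal protein genes had ratios of 0.939 in RG-like and 0.893 in PyN-like cells. Among cells of 3000 to 6000 UMIs the members' median log2 ratio was 0.14 in RG-like and -0.09 in PyN-like cells, and with mitochondrial and ribosomal protein genes left out of the total it was -0.15 in PyN-like cells.

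In RG-like cells 6 of 83 members were past the fold upward and 0 downward, where 11.0% and 13.0% of all 6903 genes compared were. Their median log2 ratio was 0.06, beside -0.02 over all genes, but it was -0.001 when cells were gated by their own markers, so the direction for the group rests on how RG cells are chosen. In IPC-like cells 3 of 82 were past the fold upward (Ndufaf6, Ndufaf2 and Ndufa10) and 0 downward, where 10.8% and 3.86% of all genes were. In PyN-like cells 0 of 83 were past the fold in either direction, where 8.28% and 2.63% of all genes were, and 63 of 83 had a ratio below 1, beside 3246 of all 8406 genes, with a median log2 ratio of -0.11 beside 0.05 over all genes. All 11 common complex IV subunits were among those 63, from 0.846 for Cox6b1 to 0.989 for Cox4i1.

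**Figure D5:**
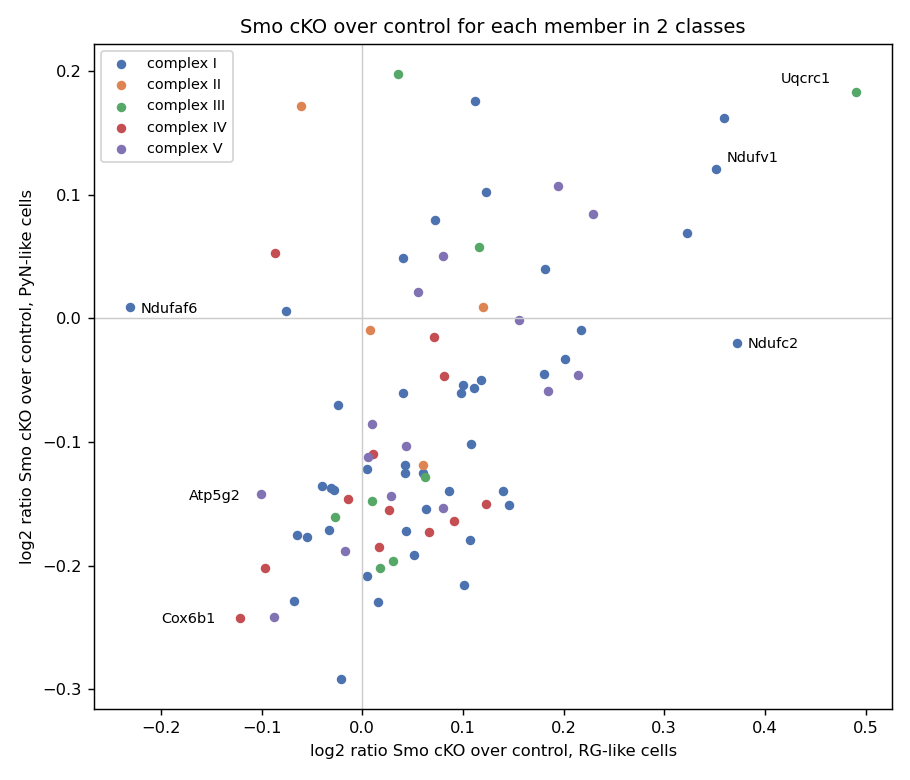
Log2 ratio of Smo cKO over control CPM in RG-like cells (x axis) and in PyN-like cells (y axis) for 82 members, as points colored by complex. Most points lie right of 0 and below 0, and Uqcrc1, Ndufc2 and Ndufv1 lie far to the right at ratios of 1.41, 1.29 and 1.28 in RG-like cells.

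The RG-like class holds 2 clusters, one led by Aldoc and Fabp7 and one led by Gins2, a DNA replication gene, with 682 and 458 cells in control and 683 and 240 in Smo cKO. In the former the members summed to 41161 CPM in control and 41763 CPM in Smo cKO, and in the latter to 38295 and 40551 CPM. The Smo cKO value was higher in each cluster, and a smaller share of its RG-like cells came from the cluster with the lower level. Among PyN-like cells all 4 clusters had the lower sum in Smo cKO, at 39049 and 36127, 35795 and 33422, 38924 and 35314, and 38143 and 35896 CPM for control and Smo cKO.

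The plot of genotype ratios leaves out Cox4i2, which had too few UMIs in neurons. Cox4i2 had the highest RG ratio of the 83 members compared, 2.13 (1.86 to 2.45), from 47.6 to 102 CPM. In the Aldoc-led and Gins2-led clusters it was at 62.2 and 32.0 CPM in control and 109 and 85.8 CPM in Smo cKO, and in the 2 cycling RG-like clusters at 13.3 and 24.3 CPM in control and 36.6 and 52.2 CPM in Smo cKO. It was thus higher in Smo cKO in each of these 4 clusters. In mural cells it was at 489 CPM in control and 569 CPM in Smo cKO, a ratio of 1.16 (0.80 to 1.69) that includes 1.

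Ndufc2 was higher in Smo cKO progenitors and not in Smo cKO neurons. In all 9 RG-like, IPC-like and bMIPC-like clusters (bMIPC, basal multipotent IPC, marked by Egfr and Olig2) its ratio was above 1, from 1.04 to 1.83, and in 8 of them the interval lay above 1. The highest was the bMIPC-like cluster led by Olig1 and by replication genes such as Ung and Mcm5, at 1298 CPM in 418 control cells and 2369 CPM in 103 Smo cKO cells (1.73 to 1.93). In the 4 PyN-like clusters its ratio ran from 0.945 to 1.05, and over all PyN-like cells it was 0.986 (0.958 to 1.02).

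Further members past the fold in RG-like cells belonged to complexes I and III. Uqcrc1, a core subunit of complex III that faces the matrix, was at 128 CPM in control and 179 CPM in Smo cKO, a ratio of 1.41 (1.29 to 1.54), and its ratio was above 1 in all 9 progenitor clusters, with 8 intervals above 1, and in all 4 PyN-like clusters, with 3. The core subunit Ndufv1, which holds the flavin that accepts electrons from NADH, was at 96.5 CPM in control and 123 CPM in Smo cKO RG-like cells, a ratio of 1.28, and had a ratio of 1.09 in PyN-like cells. Its ratio was above 1 in 8 of 9 progenitor clusters, with 2 intervals above 1, and in 3 of 4 PyN-like clusters, with 1. Ndufa12 had a ratio of 1.25 (1.18 to 1.32) in RG-like and 1.05 (0.998 to 1.10) in PyN-like cells. At the other end were Ndufaf6 at 0.852, whose interval of 0.672 to 1.08 includes 1, Cox6b1 at 0.920, Atp5g2 at 0.933, Cox5b at 0.935 and Atp5g1 at 0.941.

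Genes of related pathways are given for scale. The 17 glycolysis genes summed to 1.29 of control in Smo cKO RG-like cells and 1.12 in PyN-like cells, the 18 citric acid cycle genes to 1.12 and 1.05, and the 13 genes in mitochondrial DNA to 1.03 and 1.01. In PyN-like over RG-like control cells, 1 of 15 glycolysis genes compared was past the fold upward and 11 downward, 2 of 18 citric acid cycle genes upward and 5 downward, and 11 of 13 mitochondrial genes upward and 0 downward, beside 35.4% upward and 29.5% downward of all genes. Genes that respond to cell dissociation, a mark of handling, summed to 0.826 of control in RG-like Smo cKO cells and 0.99 in PyN-like cells, and their part in the genotype ratios was not tested.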

How the data were processed

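The authors deposited raw UMI counts for each gene in each cell. The submitters' processing notes name Cell Ranger, Seurat 3, StringTie and mm10, and the ferret build is not given in the sources used here. Cells with 750 to 5000 genes and less than 10% mitochondrial UMIs were kept. The study's methods state these limits for the cells it counts, yet applying them to the deposited table left out 26 control, 387 Smo cKO and 5 and 240 ferret cells. Counts were log-normalized, integrated across libraries and clustered in Seurat 5.3.0 under R 4.3.3 on 2000 variable genes without the members, 30 dimensions and resolution 0.8. A cluster was named with at least 3 markers at 1.5-fold or more over other cells and in at least 10% of its cells, thresholds set after the clusters had been seen, and no annotation of the cells was used. No doublet caller was run and doublets were not removed. UMIs were summed per class and library and divided by the class total. CPM was given exact Poisson, ratios exact conditional binomial and shares exact binomial (Clopper-Pearson) intervals in python 3.11.15 with numpy 2.4.6, scipy 1.17.1 and pandas 2.3.3, and the calculation was tested on simulated data. Members and gene lists were chosen with earlier results of these data known. Named were the 8 members with the highest and the 8 with the lowest ratio of PyN-like over RG-like cells in control with the same direction in both libraries, the 5 highest and 5 lowest in Smo cKO over control RG-like cells, the complex II and paralog genes and the 3 most abundant. A gene outside this rule was named after its value was seen, and 1 gene that meets it is not reported here. Symbols were matched to GENCODE M21 of GRCm38, where 89 of 91 members had 1 gene, and the authors' annotation may differ. Many members have processed pseudogenes, and how shared reads were counted is not given in the sources used here. Alternatives covered clustering resolution and integration, marker gating, cell filters, scaling, the UMI minimum, cell depth and single barcode sets.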

Additional observations from a re-analysis of the deposited data

Results flagged for a closer look

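The members' summed ratio of Smo cKO over control was above 1 in RG-like cells (1.04) and below 1 in PyN-like cells (0.923), a difference of -0.17 on the log2 scale for PyN-like minus RG-like cells, and it was singled out because the 2 classes lie on opposite sides. The difference was not tested, since each genotype is 1 library. The RG-like side also depends on how RG cells are chosen, since the members' median log2 ratio there was -0.001 when cells were gated by markers.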

How the results depend on the processing

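The 9 medians were recomputed under 117 alternatives, of which 104 stayed within the spread of the median across member genes (an interval of order statistics, a description since genes are not replicates), 11 moved outside it and 2 turned a median whose interval excludes 0. The sign of the median changed in 12 of the 117, also for medians near 0 such as PyN-like over RG-like and IPC-like over RG-like control cells. The alternatives that use cells of 3000 to 6000 UMIs, leave out the Gins2-led cluster or take 1 ferret barcode set were chosen after seeing the data. Values are median log2 ratios. The median of PyN-like over RG-like cells ran from -0.063 to 0.043 in control and from -0.282 to -0.141 in Smo cKO. Marker gating turned Smo cKO over control in RG-like cells from 0.055 to -0.001, and moved IPC-like over RG-like control cells from -0.014 to -0.067 and Smo cKO over control IPC-like cells from -0.005 to -0.030. A total without mitochondrial and ribosomal genes turned IPC-like over RG-like Smo cKO cells from -0.055 to 0.073 and the control value from -0.014 to 0.147, and moved Smo cKO over control to -0.057 in IPC-like and -0.150 in PyN-like cells. That total shifts all genes alike: it also moved the median over all genes from -0.024 to 0.136 in control and from 0.030 to 0.158 in Smo cKO, and the members past the fold from 5 higher and 7 lower to 16 higher and 5 lower, and in Smo cKO from 5 and 8 to 5 and 3, where 37.6% and 22.7% of all genes were past it under that total. Median-of-ratios scaling gave -0.282 for PyN-like over RG-like Smo cKO cells (3 higher and 36 lower, against 3 and 24, where 32.9% and 33.7% of all genes were), -0.055 and -0.160 for Smo cKO over control in IPC-like and PyN-like cells, and in control 4 higher and 18 lower in place of 7 and 12 for PyN-like over RG-like cells (31.5% and 32.8% of all genes), and these shifts follow from setting the median of all genes to 0. Cells of 3000 to 6000 UMIs gave -0.256 for PyN-like over RG-like Smo cKO cells, 0.139 for Smo cKO over control RG-like cells and -0.235 for IPC-like over RG-like ferret cells. For single genes, 471 of 546 alternatives kept the value, 73 moved it and 2 turned it, both for Ndufb9 in PyN-like over RG-like Smo cKO cells, to -0.039 with median-of-ratios scaling and -0.091 in cells of 3000 to 6000 UMIs. Beyond the constructions named, the cause was not tested. In PyN-like over RG-like mouse cells 7 members were under the minimum of 200 UMIs and were not compared. Some other comparisons held fewer members, such as 82 for Smo cKO over control in IPC-like cells. No paired analysis was possible because each genotype has 1 library and the ferret samples are of 1 group.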

Other observations

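The members' summed levels in further classes are given as values. Cycling RG-like cells, marked by mitotic genes, were at 39472 CPM in control and 40247 CPM in Smo cKO, beside 39777 and 41356 CPM in the other RG-like cells, which include the cluster led by the replication gene Gins2. The bMIPC-like cluster not called cycling, which has the replication genes Ung and Mcm5 among its leading genes, was at 41537 and 41934 CPM. The bMIPC-like clusters called cycling were at 41294 and 40107 CPM, both pairs for control and Smo cKO. Interneuron-like cells were at 38302 and 36095 CPM, and microglia-like cells at 37454 and 33908 CPM. The microglia-like class holds 2 clusters in different proportions, one of 73 and 77 cells at 38382 and 37963 CPM and one of 25 and 100 cells at 33568 and 27453 CPM. Endothelial-like cells were at 34552 and 31247 CPM and mural-like cells at 40593 and 38817 CPM. The 2 unnamed mouse clusters, of 1209 and 204 cells, were at 41189 and 39007 CPM in control and at 41994 and 41901 CPM in Smo cKO. In ferret, cycling IPC-like cells had a higher member sum than the other IPC-like cells, at 39008 against 31450 CPM in set 1 and 27333 against 23249 CPM in set 2. Cajal-Retzius-like cells had the highest sum of the named classes in each ferret set, at 42721 CPM (44 cells) and 35504 CPM (37 cells), but in set 1 an unnamed cluster of 444 cells was higher, at 44209 CPM. The lowest ferret sums were in a PyN-like cluster with a median of 1539 UMIs, at 11322 CPM in set 1, from 15 cells and 315 member UMIs, and 7110 CPM in set 2, from 436 cells. Its cytosolic ribosomal protein genes summed to 63259 and 41019 CPM, against 159314 and 127754 CPM over all PyN-like cells, and its genes in mitochondrial DNA to 30767 and 16260 CPM, against 15837 and 13571 CPM.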
